A study of Mus musculus with 3 samples.

Results

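Fusing myocyte-rich spots were the spots of 3 sections of regenerating mouse muscle chosen by a measured value, a fraction of at least 0.1 of the transcripts assigned to fusing myocytes. They numbered 906 of 2758 spots, of which 57 of 859 lay in the section collected 2 days post-injury (dpi), 401 of 933 in the section at 5 dpi and 448 of 966 in the section at 7 dpi. They were set against the fusing myocyte-poor spots of the same section, whose fusing myocyte fraction was below 0.01. Poor spots numbered 356, 177 and 120 at 2, 5 and 7 dpi, and the remaining 1199 spots lay between the limits.

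The sections were cut from the tibialis anterior of C57BL6/J mice aged 5 months. Notexin, a venom toxin that lyses muscle fibers while sparing the stem cells beside them, had been injected into the muscle of every mouse, so no uninjured section was part of the comparison. RNA was captured on a Visium array, where a barcoded spot collects RNA from an area with several cells or parts of cells. Each time point had 1 section, so animal, section and time point cannot be told apart, no p-value is given, and intervals on shares are exact Clopper-Pearson 95% intervals over spots that cover counting error only.

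Muscle stem cells (MuSCs) leave quiescence after injury, divide as activated cells, commit to differentiation as myoblasts and become myocytes that fuse with each other or with surviving fibers. The differentiating cell switches on Myog, a transcription factor of late myogenesis, and then Mymk and Mymx, membrane proteins that carry out fusion. Fibro-adipogenic progenitors (FAPs) and macrophages share the regenerating tissue with them and are known to influence myogenic differentiation. The levels of Myog, Mymk and Mymx were not analysed here, so the label of the spots rests on the deconvolution alone.

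The measure that chose the spots was theta, the authors' BayesPrism estimate of how much of the RNA in a spot derived from a given cell type in a single-cell reference. Theta values of the 27 types sum to 1 in a spot, so a high value of one type lowers the room for the others, and differences in theta between rich and poor spots are given as descriptions. By the authors' methods, mitochondrial and ribosomal protein genes were left out of the reference. Their percentages would then not be among the values that chose the spots, although they come from the same libraries. The methods describe fewer types than these 27, so this could not be checked for the deposited values. Total unique molecular identifiers (UMIs) per section ranged from 5710385 at 2 dpi to 14734531 at 7 dpi. The lowest theta of a spot had a median of 0.00205 in rich and 0.00110 in poor spots at 2 dpi, 0.00104 and 0.000646 at 5 dpi, and 0.000805 and 0.000568 at 7 dpi, and values of this size carry little information on whether a type was there.

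Fusing myocyte-rich spots made up 6.64% of the spots at 2 dpi (5.06 to 8.51%), 43.0% at 5 dpi (39.8 to 46.2%) and 46.4% at 7 dpi (43.2 to 49.6%). The fusing myocyte fraction in these spots ran from 0.1001 to 0.331 at 2 dpi with a median of 0.129. It ran from 0.101 to 0.530 at 5 dpi with a median of 0.214, and from 0.101 to 0.482 at 7 dpi with a median of 0.213. The spots at 2 dpi were thus both fewer and closer to the limit. A fraction of at least 0.3 was reached in 1 spot at 2 dpi, 84 spots at 5 dpi and 68 spots at 7 dpi. In the nearest spots on either side of the limit the fraction was 0.0979 and 0.1001 at 2 dpi, 0.0997 and 0.101 at 5 dpi, and 0.0999 and 0.101 at 7 dpi.

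**Figure D1:**
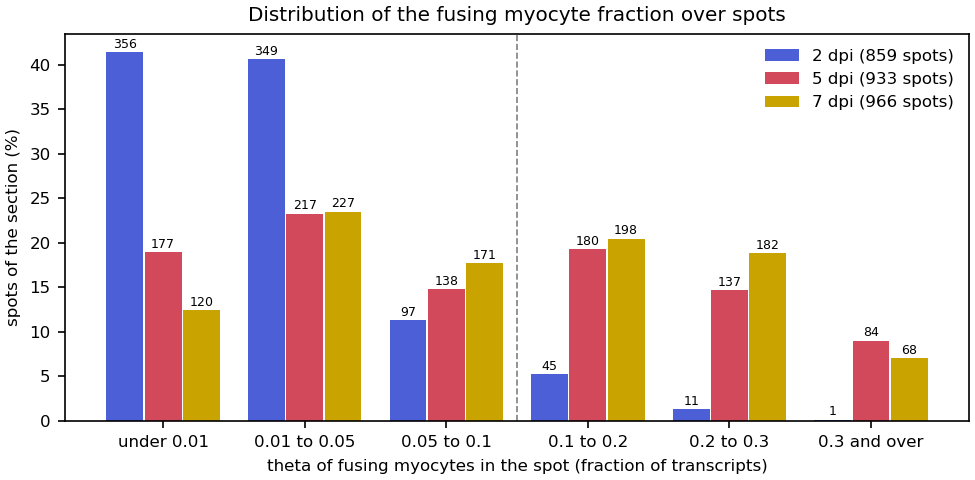
Share of each section's spots (y axis, percent) by the fusing myocyte fraction of the spot (x axis, theta in 6 ranges), with the number of spots above each bar and a dashed line at the limit of 0.1. The section at 2 dpi holds 705 of its 859 spots below 0.05, whereas the sections at 5 and 7 dpi spread over all ranges.

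Fusing myocytes were seldom the leading source of transcripts in the spots named for them. They had the highest theta of all types in 1 of 57 rich spots at 2 dpi, in 52 of 401 (13.0%, 9.84 to 16.7%) at 5 dpi and in 31 of 448 (6.92%, 4.75 to 9.68%) at 7 dpi. Type IIb myonuclei, the nuclei of the fastest fibers, led in 38, 341 and 405 rich spots at 2, 5 and 7 dpi. With the 2 types of myonuclei set aside, fusing myocytes led in 68.4% of rich spots at 2 dpi (54.8 to 80.1%), in 98.8% at 5 dpi (97.1 to 99.6%) and in 95.1% at 7 dpi (92.7 to 96.9%).

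Myonuclei accounted for a large fraction of the typical rich spot, though for less than in poor spots. The summed theta of type IIb and IIx myonuclei had a median of 0.506 in rich and 0.922 in poor spots at 2 dpi. The medians were 0.557 and 0.932 at 5 dpi, and 0.518 and 0.910 at 7 dpi. The mean theta of type IIb myonuclei was lower in rich than in poor spots of all 3 sections, at 0.351 against 0.819, 0.465 against 0.829 and 0.469 against 0.773 at 2, 5 and 7 dpi. Type IIx myonuclei, of a somewhat slower fast fiber, did not keep 1 direction. Their mean theta was 0.130 in rich and 0.0512 in poor spots at 2 dpi, 0.0759 and 0.0981 at 5 dpi, and 0.0527 and 0.120 at 7 dpi. At 2 dpi type IIx exceeded type IIb in 11 of 57 rich spots and in 0 of 356 poor spots, for which the Clopper-Pearson interval reaches 1.03%.

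The other 24 types were nearly all higher in rich than in poor spots when theta was taken as deposited. The mean theta was higher in rich spots for 24, 21 and 20 of them at 2, 5 and 7 dpi. It was at least 2-fold higher for 16 of 24 types at 2 dpi (66.7%), 15 at 5 dpi (62.5%) and 12 at 7 dpi (50%), and at least 2-fold lower for 0. The median ratio of rich to poor over the 24 types was 2.25, 2.72 and 2.07, and a partner type is best read against these medians. At 2 dpi most partner types had a still higher mean theta in the spots from 0.01 to 0.05 than in rich spots. Activated MuSCs were at 0.0191 against 0.0105, Cx3cr1-lo M2 macrophages at 0.0214 against 0.0128 and patrolling monocytes at 0.119 against 0.104. The exceptions were quiescent MuSCs, pro-remodeling FAPs, inflammatory monocytes, dendritic cells, neutrophils and neural cells.

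Once the 2 types of myonuclei were taken out and theta rescaled over the rest, few partner types were still higher in rich spots. The rescaled mean was higher for 4 of 24 types at 2 dpi, 4 at 5 dpi and 3 at 7 dpi. It was at least 2-fold higher for 1 type at 2 dpi (4.17%), 2 at 5 dpi (8.33%) and 2 at 7 dpi (8.33%), and at least 2-fold lower for 8 (33.3%), 15 (62.5%) and 12 (50%). The types at least 2-fold higher were patrolling monocytes at 2 dpi, and pro-remodeling FAPs and Cx3cr1-hi M2 macrophages at both later times. The rescaled values of poor spots rest on fewer transcripts. Theta of all types but myonuclei times the UMIs had a median of 539, 649 and 1390 per poor spot against 3968, 4385 and 7475 per rich spot. These products are rough and not transcript counts, since the UMIs include the mitochondrial and ribosomal protein transcripts that, by the methods, the reference left out. Fusing myocytes also take a large part of the rescaled sum in rich spots, with a mean of 0.336, 0.496 and 0.466. Leaving them out of the sum as well gave a higher mean in rich spots for 8, 9 and 10 of 24 types.

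**Figure D2:**
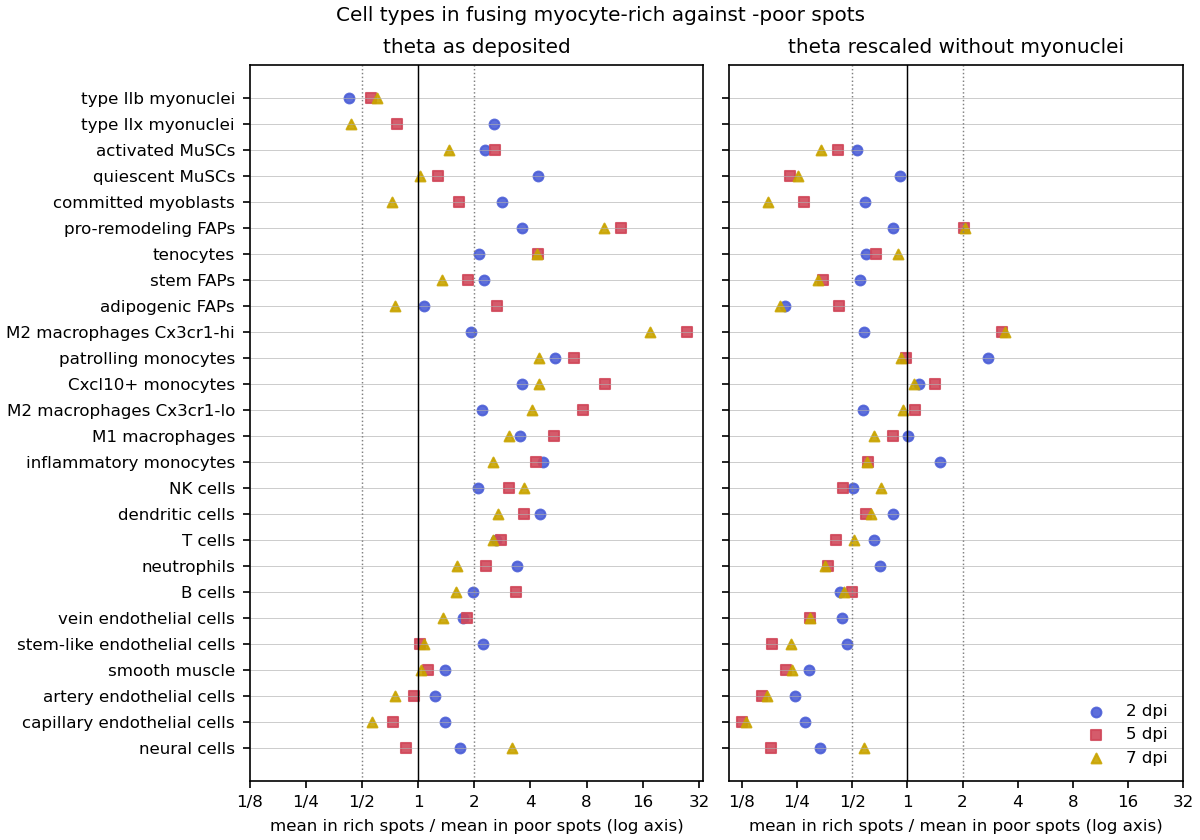
Ratio of the mean in rich spots to the mean in poor spots (x axis, logarithmic) for 26 cell types (rows), for theta as deposited (left) and rescaled without myonuclei (right). Each point is 1 section, and dotted lines mark 2-fold differences. Most points lie right of 1 on the left and left of 1 on the right, with Cx3cr1-hi M2 macrophages farthest to the right at 5 and 7 dpi in both panels.

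Of the earlier stages of the myogenic lineage, quiescent MuSCs and committed myoblasts had their largest ratios at 2 dpi and activated MuSCs at 5 dpi. Quiescent MuSCs, the resting stem cells, had a mean theta of 0.0159 in rich and 0.00362 in poor spots at 2 dpi, a ratio of 4.40. At 5 dpi the means were 0.00427 and 0.00332, and at 7 dpi 0.00381 and 0.00371, with ratios of 1.29 and 1.03. A theta of at least 0.01 for quiescent MuSCs was found in 45.6% of rich spots at 2 dpi (32.4 to 59.3%), 5.74% at 5 dpi (3.67 to 8.48%) and 5.13% at 7 dpi (3.28 to 7.60%). Rich spots at 2 dpi thus reached this limit far more often than those of the later sections, which were also deeper. The contrast was not particular to quiescent MuSCs. T cells reached the limit in 24.6, 6.98 and 4.24% of rich spots and stem-like endothelial cells in 35.1, 7.23 and 11.2%. Pro-remodeling and adipogenic FAPs, tenocytes and Cx3cr1-hi M2 macrophages reached it more often at the later times.

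Activated MuSCs, the cycling stage, had mean thetas of 0.0105, 0.00884 and 0.00676 in rich spots, which were 2.27, 2.59 and 1.46 times those in poor spots at 2, 5 and 7 dpi. Committed myoblasts, the stage just before fusion, had mean thetas of 0.0118, 0.00847 and 0.00692 in rich spots and 0.00421, 0.00510 and 0.00949 in poor spots, with ratios of 2.81, 1.66 and 0.729. At 7 dpi they reached 0.01 in 19.2% of rich spots (15.7 to 23.2%) and 32.5% of poor spots (24.2 to 41.7%). After rescaling without myonuclei all 3 progenitor stages were lower in rich than in poor spots of every section, with ratios from 0.174 to 0.908. Rescaling without fusing myocytes as well left quiescent MuSCs higher at 2 dpi, at 1.34-fold.

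Progenitor stages did not climb steadily with the fusing myocyte fraction in any section. At 2 dpi activated MuSCs fell from 0.0191 in the range from 0.01 to 0.05 to 0.00458 in that from 0.2 to 0.3. At 5 dpi committed myoblasts peaked at 0.00976 in the range from 0.1 to 0.2 and were at 0.00631 at 0.3 and over. At 7 dpi their mean theta over the 6 ranges was 0.00949, 0.0125, 0.0116, 0.00938, 0.00551 and 0.00352, from the poor spots upward. Activated MuSCs peaked at 0.00917 in the range from 0.05 to 0.1 and quiescent MuSCs at 0.00606 in the same range, and both were lowest at 0.3 and over, at 0.00416 and 0.00245. Within the 448 rich spots, Spearman's rho with the fusing myocyte fraction was -0.45 for committed myoblasts, -0.41 for activated and -0.35 for quiescent MuSCs. The spots of a section share a library, and fractions that sum to 1 oppose each other, so these coefficients are a description.

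Pro-remodeling FAPs, stromal cells that lay down and reshape matrix, were the leading partner at the later times. Their mean theta was 0.0224 in rich and 0.00625 in poor spots at 2 dpi, 0.0590 and 0.00482 at 5 dpi, and 0.0884 and 0.00895 at 7 dpi. The ratios were 3.59, 12.2 and 9.87, and 0.833, 2.03 and 2.08 after rescaling without myonuclei. They had the highest theta of the 24 partner types in 9 of 57, 272 of 401 and 351 of 448 rich spots. A theta of at least 0.1 for both pro-remodeling FAPs and fusing myocytes was found in 60 spots at 5 dpi, which was 15.0% of the fusing myocyte-rich spots but 92.3% of the 65 spots with that much pro-remodeling FAP signal. At 7 dpi there were 167 such spots, or 37.3% and 90.3% of the respective sets. Among all spots, 43.0% at 5 dpi and 46.4% at 7 dpi were fusing myocyte-rich. The mean theta of pro-remodeling FAPs rose over the 6 ranges from 0.00482 to 0.0822 at 5 dpi and from 0.00895 to 0.117 at 7 dpi.

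The other stromal types had smaller ratios. Stem FAPs, a less differentiated state, had ratios of 2.25, 1.85 and 1.35, with mean thetas in rich spots of 0.0124, 0.00828 and 0.00804. At 7 dpi their mean theta was highest at 0.0143 in the range from 0.01 to 0.05 and lowest at 0.00327 at 0.3 and over. Adipogenic FAPs, which lean toward the fat lineage, had mean thetas of 0.00755 in rich and 0.00703 in poor spots at 2 dpi, 0.0155 and 0.00583 at 5 dpi, and 0.0130 and 0.0173 at 7 dpi. Over the 6 ranges at 5 dpi their mean theta went from 0.00583 to 0.0174, highest at 0.3 and over. As deposited, their direction differed at 7 dpi, where they reached 0.01 in 37.1% of rich spots (32.6 to 41.7%) and 53.3% of poor spots (44.0 to 62.5%). Rescaled without myonuclei their ratios were 0.216, 0.421 and 0.202, and without fusing myocytes too 0.329, 0.755 and 0.335, below 1 in all 3 sections.

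Tenocytes, the fibroblasts of tendon, were higher in rich spots as deposited and lower once rescaled without myonuclei. Their mean theta was 0.0114 in rich and 0.00540 in poor spots at 2 dpi, 0.0142 and 0.00324 at 5 dpi, and 0.0143 and 0.00330 at 7 dpi, with ratios of 2.11, 4.40 and 4.34. Rescaled without myonuclei the ratios were 0.597, 0.677 and 0.887, and with fusing myocytes left out as well they were 1.06, 1.16 and 1.46. These means were carried by a minority of spots, since the medians in rich spots were 0.00446, 0.00579 and 0.00574 while the highest spot reached 0.131, 0.225 and 0.287. At 7 dpi, 11 of the 16 spots with a tenocyte theta of at least 0.1 were fusing myocyte-rich, beside 46.4% of all spots.

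**Figure D3:**
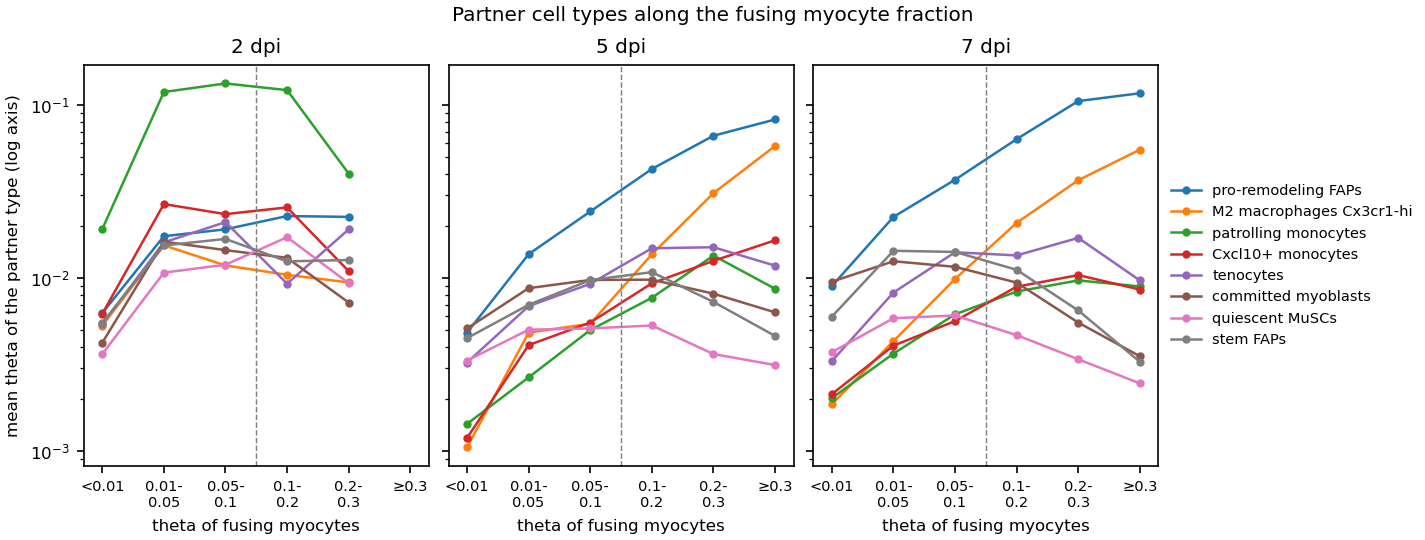
Mean theta of 8 partner types (y axis, logarithmic) over 6 ranges of the fusing myocyte fraction (x axis), 1 panel per section, with a dashed line at the limit of 0.1; ranges with fewer than 10 spots are not drawn, and the last point at 2 dpi holds 11 spots. Pro-remodeling FAPs and Cx3cr1-hi M2 macrophages climb to the right at 5 and 7 dpi, while committed myoblasts, quiescent MuSCs and stem FAPs turn down.

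Monocytes and macrophages, which clear debris early and take on repair functions later, were all higher in rich spots as deposited. Once rescaled, their direction depended on which types were left out of the sum. All 6 types had a higher mean theta in rich than in poor spots of all 3 sections. This stands beside 24, 21 and 20 of all 24 partner types at 2, 5 and 7 dpi. Rescaled without myonuclei, 4, 3 and 2 of the 6 types were still higher, beside 4, 4 and 3 of all 24. With fusing myocytes left out as well, 4, 6 and 6 of the 6 were higher, beside 8, 9 and 10 of all 24. Patrolling monocytes had mean thetas in rich spots of 0.104, 0.00984 and 0.00896 and ratios of 5.43, 6.88 and 4.44 at 2, 5 and 7 dpi. After rescaling without myonuclei the ratios were 2.77, 0.984 and 0.926, and with fusing myocytes left out as well they were 3.52, 1.78 and 1.66, so the direction at 5 and 7 dpi depended on the rescaling. They reached 0.1 in 22 of the 57 rich spots at 2 dpi, and these were 9.13% of the 241 spots with that much patrolling monocyte signal, beside 6.64% of all spots of the section.

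Cx3cr1-hi M2 macrophages, the repair-associated subset with high Cx3cr1, had the largest ratios at 5 and 7 dpi. Their mean theta was 0.0102 in rich and 0.00529 in poor spots at 2 dpi, 0.0288 and 0.00105 at 5 dpi, and 0.0324 and 0.00186 at 7 dpi. The ratios were 1.92, 27.5 and 17.5, and 0.581, 3.28 and 3.41 after rescaling. The poor-spot means at 5 and 7 dpi lie near the lowest thetas of a spot, which limits how far the size of these ratios can be read. Of the spots with a theta of at least 0.1 for this subset, 27 of 30 at 5 dpi and 23 of 24 at 7 dpi were fusing myocyte-rich. Among all spots of these sections the shares were 43.0% and 46.4%. The Cx3cr1-lo subset had ratios of 2.20, 7.62 and 4.11, with mean thetas in rich spots of 0.0128, 0.00965 and 0.0102. The other monocytes and macrophages also had poor-spot means near the lowest thetas at 5 dpi, from 0.00118 to 0.00143. The size of their ratios at 5 dpi is limited in the same way.

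Cxcl10+ monocytes, named for an interferon-induced chemokine, were above the poor spots on both scales. Their mean theta was 0.0223, 0.0119 and 0.00944 in rich spots against 0.00619, 0.00119 and 0.00213 in poor spots. The ratios of 3.61, 10.0 and 4.44 were all above the median of the 24 types, and the rescaled ratios of 1.15, 1.42 and 1.09 also lay above 1 in all 3 sections. The poor-spot mean at 5 dpi lies near the lowest thetas of a spot, which limits how far the ratio of 10.0 can be read. A theta of at least 0.01 was found in 57.9%, 36.7% and 20.8% of rich spots and in 7.58%, 0% and 1.67% of poor spots. For the 0 of 177 poor spots at 5 dpi the Clopper-Pearson interval reaches 2.06%.

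Inflammatory monocytes, the early recruited subset, reached 0.01 in 50.9% of rich spots at 2 dpi (37.3 to 64.4%) but in 8.98% (6.37 to 12.2%) and 6.25% (4.19 to 8.91%) at 5 and 7 dpi. Their mean theta in rich spots was 0.0217, 0.00508 and 0.00425, with ratios of 4.66, 4.29 and 2.53. Rescaled without myonuclei the ratios were 1.51, 0.612 and 0.604, and with fusing myocytes left out as well 2.10, 1.11 and 1.06. Their direction at 5 and 7 dpi thus depended on the rescaling. M1 macrophages, the pro-inflammatory type, followed a like course. Their mean theta in rich spots was 0.0183, 0.00671 and 0.00562, with ratios of 3.54, 5.37 and 3.06. They reached 0.01 in 47.4%, 18.5% and 10.7% of rich spots. Such a fall was not particular to these types, as T cells went from 24.6% to 6.98% and 4.24%. The dendritic cells, which present antigen, had mean thetas of 0.0118, 0.00491 and 0.00573 in rich spots and ratios of 4.51, 3.70 and 2.67. At 2 dpi their median in rich spots was 0.00459 while 1 spot reached 0.143.

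The remaining 10 types stayed below a mean theta of 0.01 in both classes of all sections. These were neutrophils, T, B and NK cells, capillary, artery, vein and stem-like endothelial cells, smooth muscle and neural cells. Their mean thetas in rich spots ran from 0.00443 to 0.00999 at 2 dpi, from 0.00262 to 0.00571 at 5 dpi and from 0.00204 to 0.00742 at 7 dpi. The ratios ran from 1.24 to 3.41, 0.733 to 3.34 and 0.567 to 3.71. The vascular and the neural types were picked out of these after their values were seen.

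The 5 endothelial and smooth muscle types had low ratios, with medians over the types of 1.40, 1.02 and 1.04 at 2, 5 and 7 dpi. Capillary endothelial cells were higher in rich spots at 2 dpi (ratio 1.40) and lower at 5 and 7 dpi (0.733 and 0.567). Artery endothelial cells followed with 1.24, 0.945 and 0.749. At 7 dpi, capillary endothelial cells reached 0.01 in 2.46% of rich spots (1.23 to 4.35%) and 17.5% of poor spots (11.2 to 25.5%).

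Neural cells at 7 dpi had a ratio of mean thetas of 3.17 but of medians of 1.24, since single spots reached up to 0.442 among the rich. They were most abundant between the limits, with a mean theta of 0.0262 in the range from 0.05 to 0.1 and 0.00116 at 0.3 and over. Of the 25 spots with a neural theta of at least 0.1, 6 were fusing myocyte-rich, beside 46.4% of all spots.

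Fusing myocyte-rich spots had fewer mitochondrial and more ribosomal protein transcripts than poor spots in every section. Mitochondrially encoded transcripts are abundant in mature fibers, and ribosomal protein transcripts are abundant in cells that grow or make much protein. The median mitochondrial percentage of UMIs was 22.3% in rich and 34.7% in poor spots at 2 dpi, 12.0% and 32.6% at 5 dpi, and 12.2% and 29.6% at 7 dpi. The median ribosomal protein percentage was 7.98% and 4.05% at 2 dpi, 9.94% and 4.68% at 5 dpi, and 10.0% and 4.78% at 7 dpi. Overlap between the classes was small at the later times. A mitochondrial percentage below the median of poor spots was found in 40 of 57, 387 of 401 and 443 of 448 rich spots, and a ribosomal protein percentage above it in 53, 401 and 446.

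The median rich spot held 2459, 3014 and 3845 genes at 2, 5 and 7 dpi against 1697, 1967 and 2695.5 in the median poor spot. These are ratios of 1.45, 1.53 and 1.43, whereas the UMIs differed less, at 9147 against 7247, 11763 against 10719 and 17073.5 against 16119.5. Within spots of 5000 to 10000 UMIs the ratio of genes was 1.46, 1.46 and 1.38. The number of partner types with a theta of at least 0.01 had a median of 7, 4 and 4 in rich and 1, 1 and 2 in poor spots.

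At 5 and 7 dpi both percentages moved in 1 direction with the fusing myocyte fraction, whereas UMIs did not. Median UMIs at 5 dpi were 10719, 11269, 9708, 9573, 11763 and 18044 from the poor spots upward. At 7 dpi UMIs fell before they rose. Over the 6 ranges the median mitochondrial percentage at 5 dpi was 32.6, 31.9, 23.7, 15.5, 11.3 and 8.44%, and the median ribosomal protein percentage was 4.68, 5.21, 6.41, 8.13, 10.6 and 14.0%. At 7 dpi the mitochondrial percentage went from 29.6 to 9.71% and the ribosomal protein percentage from 4.78 to 11.9%. Spearman's rho with the fusing myocyte fraction inside the rich spots was -0.67 and -0.43 for the mitochondrial and 0.77 and 0.54 for the ribosomal protein percentage at 5 and 7 dpi, over 401 and 448 spots. At 2 dpi it was 0.08 and -0.08 over 57 spots. The section at 2 dpi showed no such gradient, as its mitochondrial percentage was 34.7, 17.3, 16.9, 19.7 and 29.6% over the first 5 ranges, the fifth of which held 11 spots.

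**Figure D4:**
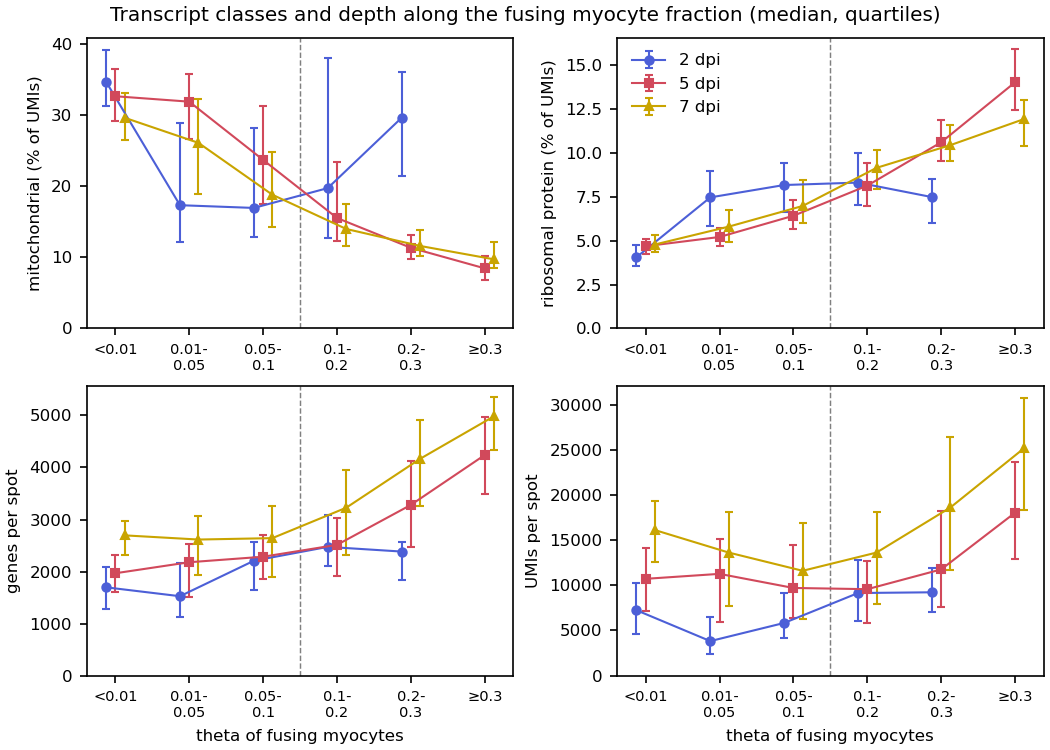
Median (points) and quartiles (bars) of the mitochondrial and ribosomal protein percentages of UMIs, genes and UMIs per spot (y axes) over 6 ranges of the fusing myocyte fraction (x axis), by section; ranges with fewer than 10 spots are not drawn, and the last point at 2 dpi holds 11 spots. Both percentages move in 1 direction at 5 and 7 dpi, and the mitochondrial percentage at 2 dpi turns up again.

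Since rich and poor spots also differed in summed myonuclei, rich spots were compared with spots below 0.1 in the same range of summed myonuclei. The ranges were 0.1 wide and held at least 5 spots of each class. Values were averaged over 7, 3 and 8 ranges at 2, 5 and 7 dpi with equal weight, so a range with few spots counted as much as a full one. This comparison was added after the data were seen. It could use 56 of 57 rich spots at 2 dpi and all 448 at 7 dpi, but only 161 of 401 at 5 dpi, those with summed myonuclei from 0.6 to 0.9. The mitochondrial percentage of rich spots was then 7.11 percentage points higher at 2 dpi and 2.07 and 1.42 points lower at 5 and 7 dpi. The ribosomal protein percentage differed by -0.26, 0.77 and 2.22 points. All of these are smaller in size than the differences against poor spots, and both percentages at 2 dpi had the opposite sign. Genes per spot stayed 1.41, 1.47 and 2.23 times higher in rich spots, but so did UMIs, at 2.11, 1.64 and 2.71 times.

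The partner types under the same matching, rescaled without myonuclei and fusing myocytes, were higher in rich spots for 11, 8 and 9 of 24 types. Pro-remodeling FAPs were 1.65, 2.42 and 2.88 times higher at 2, 5 and 7 dpi. Cx3cr1-hi M2 macrophages were at 0.813, 1.36 and 3.49 times, and Cxcl10+ monocytes at 0.836, 1.26 and 1.89 times. Patrolling monocytes were at 0.809, 1.31 and 1.52 times, and so were below the matched spots at 2 dpi and above them later. Tenocytes were at 0.952, 0.661 and 0.969 times. Committed myoblasts were lower throughout, at 0.883, 0.599 and 0.595 times, and neural cells were at 1.32, 0.329 and 0.146 times. Quiescent MuSCs were at 1.72 times at 2 dpi and at 0.737 and 0.732 times later.

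The rich spots at 2 dpi were not of 1 kind. A type IIx theta of at least 0.2 was found in 16 of the 57 (28.1%, 17.0 to 41.5%) and a patrolling monocyte theta of at least 0.05 in 26 (45.6%, 32.4 to 59.3%), with both in 1 spot and neither in 16. These limits were chosen after the values were seen. The type IIx spots had mitochondrial percentages from 25.9 to 51.8% with a median of 42.1%, and a median ribosomal protein percentage of 4.72%. The patrolling monocyte spots had medians of 13.3% and 9.25%, and the spots with neither had 24.7% and 7.82%. The fusing myocyte fraction itself was alike, with medians of 0.153, 0.126 and 0.142.

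The type IIx spots at 2 dpi lay nearer to the type IIx-bearing poor spots than to the other rich spots in both percentages. There were 19 of the latter among 356 poor spots (5.34%, 3.24 to 8.21%), with medians of 40.5% mitochondrial and 3.96% ribosomal protein transcripts. Without the type IIx spots, the remaining 41 rich spots had medians of 17.6% and 9.16%.

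At the later times type IIx spots were not more frequent among rich spots. A type IIx theta of at least 0.2 was found in 13.7% of rich spots at 5 dpi (10.5 to 17.5%) against 18.6% of poor spots (13.2 to 25.2%), and in 5.36% (3.46 to 7.87%) against 18.3% (11.9 to 26.4%) at 7 dpi. Rich spots of this kind again had more mitochondrial transcripts than the other rich spots, with medians of 27.5% against 11.4% at 5 dpi and 20.8% against 12.0% at 7 dpi.

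**Figure D5:**
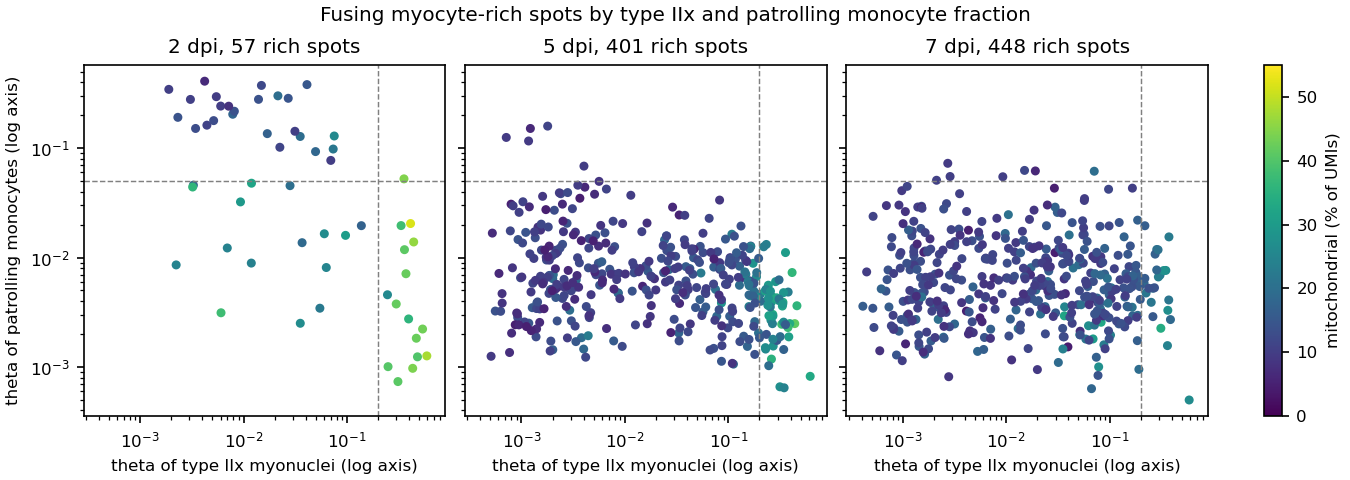
Each point is a fusing myocyte-rich spot, placed by its theta of type IIx myonuclei (x axis, logarithmic) and of patrolling monocytes (y axis, logarithmic) and coloured by its mitochondrial percentage of UMIs, 1 panel per section, with dashed lines at 0.2 and 0.05. At 2 dpi 26 spots lie above the monocyte line and 16 beyond the type IIx line, with 1 spot in both, and 16 spots with intermediate mitochondrial percentages lie in neither set.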

How the data were processed

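Spot tables of 3 Visium sections were read, 1 per time point, and grouped by the injury day in the sample labels. The authors deposited whole-number UMI counts and gene counts per spot, and the percent of UMIs from mitochondrial, hemoglobin and ribosomal protein genes. They also deposited theta fractions of 27 cell types from BayesPrism. By the methods, its reference left out mitochondrial and ribosomal protein genes. The methods describe fewer types than these 27, so the deposited theta may come from another run. The submitters' processing notes name Space Ranger 1.0, Seurat 3.2.1 and the mm10 genome. Every percent times the UMIs gave a whole number to within 1e-06. Depth per section is given with the results, and all spots held at least 1003 UMIs.

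Spots with a fusing myocyte theta of at least 0.1 were compared with spots below 0.01 of the same section, by medians over spots for the percentages and counts and by mean theta for cell types. Types were given with values if their mean theta reached 0.01 in rich or poor spots of a section or their ratio passed 3-fold in all 3 sections, which named 17 of 27. The spots, groups of types and comparisons were chosen with earlier results of these data known. No test was made, since spots of a section are not replicates. Barcodes were shared between sections (568, 593 and 739 per pair), as barcode sets recur between arrays, and spots were kept apart by section. Image alignments without barcodes and the gene-level matrix were not used here. Alternatives were other limits for rich and poor spots, fixed depth, means or summed UMIs, median theta, theta times UMIs and rescaled theta. Spots were compared in Python 3.11.15 with pandas 2.3.3, numpy 2.4.6 and scipy 1.17.1, and the ratios were tested on simulated data.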

Additional observations from a re-analysis of the deposited data

Results flagged for a closer look

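For 4 cell types the ratio of rich to poor mean theta as deposited was at least 1.25 in a section and at most 0.8 in another. The difference between sections was not tested, with 1 section per time point. For type IIx myonuclei the ratio was 2.54, 0.774 and 0.439 in the order of days. For committed myoblasts it was 2.81, 1.66 and 0.729. For adipogenic FAPs it was 1.07, 2.65 and 0.748, and for capillary endothelial cells 1.40, 0.733 and 0.567. Artery endothelial cells (1.24, 0.945 and 0.749) and neural cells (1.67, 0.858 and 3.17) also crossed 1 but did not pass both limits. Rescaled without myonuclei, the ratios of committed myoblasts, adipogenic FAPs and capillary endothelial cells were below 1 in every section.

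Hemoglobin transcripts, a measure that no comparison of the report used, made up 0.0493%, 0.0756% and 0.0719% of the summed UMIs of rich spots in the same order. In poor spots they made up 0.0297%, 0.0995% and 0.285%.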

How the results depend on the processing

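No paired analysis was possible because each time point has 1 section. Ratios of genes per spot stayed within limits in 21 of 21 alternatives and ratios of UMIs in 14 of 15, the exception being 0.956 at 7 dpi with rich spots from 0.05. That limit gave shares of rich spots of 17.9, 57.8 and 64.1% at 2, 5 and 7 dpi, and a limit of 0.2 gave 1.40, 23.7 and 25.9%. The mitochondrial difference at 2 dpi was -16.6 points with rich spots from 0.05, -6.90 from 0.2, -9.13 as means, -7.53 in summed UMIs and -17.1 for rich spots with type IIx below 0.2. Matching on myonuclei gave 7.11, -2.07 and -1.42 points for the mitochondrial and -0.26, 0.767 and 2.22 for the ribosomal protein percentage. The latter was 5.12 at 2 dpi with type IIx below 0.2, and at 5 dpi 7.11 with rich spots from 0.2 and 4.16 within 5000 to 10000 UMIs. Matching and the type IIx limit were chosen after seeing the data.

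Higher mean thetas in rich spots were found for 4, 4 and 3 partner types after rescaling without myonuclei, and for 8, 9 and 10 without fusing myocytes too. The reversals listed next are only those of ratios past 2-fold. Ratios under 2-fold also crossed 1, such as that of Cx3cr1-hi M2 macrophages at 2 dpi, from 1.92 to 0.581. Rescaling without myonuclei reversed the ratio at 2 dpi for activated MuSCs (0.532), quiescent MuSCs (0.908), committed myoblasts (0.587), pro-remodeling FAPs (0.833), stem FAPs (0.551), tenocytes (0.597), Cx3cr1-lo M2 macrophages (0.573) and dendritic cells (0.836). At 5 dpi it reversed activated MuSCs (0.420), adipogenic FAPs (0.421), tenocytes (0.677), patrolling monocytes (0.984), inflammatory monocytes (0.612), M1 macrophages (0.834) and dendritic cells (0.596). At 7 dpi it reversed tenocytes (0.887), patrolling monocytes (0.926), inflammatory monocytes (0.604), M1 macrophages (0.659), Cx3cr1-lo M2 macrophages (0.947) and dendritic cells (0.629). Without fusing myocytes too, the reversed ratios were 0.741 for activated MuSCs, 0.839 for committed myoblasts, 0.812 for stem FAPs and 0.881 for Cx3cr1-lo M2 macrophages at 2 dpi, and 0.736 for activated MuSCs and 0.755 for adipogenic FAPs at 5 dpi. Activated MuSCs at 2 dpi were at 0.986 with rich spots from 0.2, and type IIx myonuclei at 0.534 without the 16 rich spots high in type IIx, a removal that lowers this ratio by construction while the 19 such poor spots stay. Of 484 alternatives for ratios of types, 265 stayed within a factor of 1.25, 190 moved by more, among them ratios under 2-fold that crossed 1, and 29 took a ratio past 2-fold across 1. The causes were not tested, beyond what each rescaling removes by construction. Thetas near the lowest of a spot limit what small values can show.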
